A study of Mus musculus with 25 samples.

Results

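Ms4a4c, Ms4a6b, Ms4a6c, Ms4a6d and Ms4a7, 5 members of the MS4A family of small membrane proteins, were described in macrophages sorted from the lungs of bone marrow chimeric mice. They are the members measured of a list of 6, among 13482 genes, and were found in the count table by their symbols. Ms4a4a was not analysed here. Their reads were counted in 25 libraries of 12 groups.

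The animals were mixed chimeras, in which marrow of knockout and WT donors rebuilds the blood of one host. In the IL9R chimeras, B6/Boyj hosts received Il9r -/- marrow together with Boyj WT marrow, and in the ARG1 chimeras the donors were labelled Arg1 CKO (conditional knockout) and WT. Lungs with a B16 tumor, a transplanted mouse melanoma, gave CD11c+ and CD11c- interstitial macrophages (IM), the macrophages of the lung tissue outside the air spaces. CD11c+ IM were 3 libraries labelled Il9r KO with 2 WT, and 2 labelled Arg1 CKO with 3 WT. CD11c- IM were 3 labelled Il9r KO with 2 WT, and 3 labelled Arg1 CKO with 3 WT. Naive mice gave 1 library of total macrophages for each of the 4 donor kinds. The labels give neither the Il9r allele, nor the cells in which Arg1 is deleted, nor the age of the animals, and cells left from the host are possible. No label says whether libraries of a group stem from different animals, and the p-values below therefore cover the spread between samples, which may be technical. The study asked which changes inside IM depend on IL-9 signaling.

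MS4A proteins cross the membrane several times and sit beside other receptors, whose assembly and signaling they can tune. CD20 on B cells (Ms4a1) and the beta chain of the high-affinity IgE receptor on mast cells belong to the family. Several others are made by monocytes and macrophages. In mouse macrophages MS4A4A associates with the beta-glucan receptor Dectin-1, and in humans MS4A7 is widely used as a marker of tissue macrophages. As background, Ms4a4c is a gene of inflammatory monocytes, and the 3 Ms4a6 genes are close copies of one another.

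The family lies in one cluster on chromosome 19 (GENCODE vM21, mm10/GRCm38), with 19 Ms4a genes between bases 10962293 and 11640851. Ms4a7 lies at chr19:11321039-11336146 on the minus strand and Ms4a4c at chr19:11404770-11427246 on the plus strand. Ms4a6c lies at chr19:11469366-11482192 and Ms4a6b at chr19:11516512-11531256, both on the plus strand. Ms4a6d lies at chr19:11586604-11604849 on the minus strand. The main transcript of each of the 5 genes has 7 exons.

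Reads of the Ms4a6 genes have to be told apart from near copies, and the coding stretch below shows where the 3 genes are most alike. It was chosen for having the most positions shared by all 3, compared without gaps, and is not typical of the whole coding sequence. It covers coding bases 100 to 189 of the main GENCODE transcripts, and capitals mark the 6 of 90 positions that are not the same in all 3 genes.
Ms4a6b: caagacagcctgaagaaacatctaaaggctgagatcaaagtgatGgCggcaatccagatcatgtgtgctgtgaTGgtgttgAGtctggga
Ms4a6c: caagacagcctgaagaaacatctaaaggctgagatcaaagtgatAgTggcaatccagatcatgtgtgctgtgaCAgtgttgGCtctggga
Ms4a6d: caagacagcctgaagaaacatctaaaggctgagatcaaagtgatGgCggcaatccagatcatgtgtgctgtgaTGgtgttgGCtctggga
Over the whole coding sequence 85.4% of aligned bases were identical between Ms4a6b and Ms4a6c, 81.2% between Ms4a6b and Ms4a6d and 79.0% between Ms4a6c and Ms4a6d. Ms4a7 had an identity of 62.5% to 64.0% with these 3 genes and Ms4a4c one of 58.3% to 60.1%. A word of 50 bases was found in another gene for 56.9% of the Ms4a6c transcript, 8.19% of Ms4a4c, 5.89% of Ms4a6b, 2.69% of Ms4a6d and 0% of Ms4a7. For Ms4a6c nearly all of this (55.4%) was BE692007, a transcript on the opposite strand at chr19:11470166-11484578. The strand setting of the counting is not given in the sources used here, and BE692007 has no row in the count table. Reads of Ms4a6c and of BE692007 cannot be told apart, and values of Ms4a6c are uncertain in this respect.

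Promoters are shown for 3 of the 4 genes that were lower in CD11c+ than in CD11c- IM below. Those of Ms4a7, which did not follow them in that comparison, are shown too. The 250 bases before each start in the RefSeq table (GRCm38.p6) are written in the direction of transcription, and capitals mark matches to the motifs searched. The table holds 2 starts of Ms4a7 and 1 start each of Ms4a4c, Ms4a6c and Ms4a6b. The stretches of Ms4a4c and Ms4a6b and the second stretch of Ms4a7 lie inside the GENCODE bounds of these genes. Bases before those bounds were not searched for Ms4a4c and Ms4a6b. The promoter of Ms4a6d was not analysed here.
Ms4a6c, chr19:11469118-11469367, plus strand: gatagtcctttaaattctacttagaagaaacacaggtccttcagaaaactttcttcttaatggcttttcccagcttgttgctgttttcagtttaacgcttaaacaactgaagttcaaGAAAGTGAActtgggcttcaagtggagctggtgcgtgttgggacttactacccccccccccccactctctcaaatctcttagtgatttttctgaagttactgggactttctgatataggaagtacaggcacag
Ms4a6b, chr19:11518309-11518558, plus strand: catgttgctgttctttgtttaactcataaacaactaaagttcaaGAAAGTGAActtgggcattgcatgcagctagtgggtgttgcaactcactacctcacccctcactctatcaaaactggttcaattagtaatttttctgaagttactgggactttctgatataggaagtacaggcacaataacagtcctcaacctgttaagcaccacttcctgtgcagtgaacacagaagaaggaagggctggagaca
Ms4a4c, chr19:11407411-11407660, plus strand: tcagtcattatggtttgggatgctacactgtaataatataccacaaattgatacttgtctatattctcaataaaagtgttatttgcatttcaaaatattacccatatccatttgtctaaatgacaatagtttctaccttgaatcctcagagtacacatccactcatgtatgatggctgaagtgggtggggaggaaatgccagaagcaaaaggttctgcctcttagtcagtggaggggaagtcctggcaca
Ms4a7, chr19:11336147-11336396, minus strand: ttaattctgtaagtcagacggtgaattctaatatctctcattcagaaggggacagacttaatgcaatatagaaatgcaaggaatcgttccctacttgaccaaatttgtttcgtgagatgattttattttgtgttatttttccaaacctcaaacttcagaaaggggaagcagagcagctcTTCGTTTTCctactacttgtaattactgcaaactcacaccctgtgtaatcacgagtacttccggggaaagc
Ms4a7, chr19:11334696-11334945, minus strand: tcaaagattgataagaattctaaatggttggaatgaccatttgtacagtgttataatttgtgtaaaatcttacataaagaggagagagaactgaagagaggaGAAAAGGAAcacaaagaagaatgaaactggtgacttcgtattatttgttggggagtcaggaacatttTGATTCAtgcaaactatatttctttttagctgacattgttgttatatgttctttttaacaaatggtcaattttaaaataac
The interferon-type motif GAAANNGAA was found once in 4 of these 5 promoters and not in that of Ms4a4c, and 7.13% of 32851 promoters hold it on either strand. In Ms4a6b and Ms4a6c it is the same word, GAAAGTGAA. A stricter spelling with 1 more A at its end, searched first, is held by 2.98% of promoters and by none of these 5. The AP-1 motif TGANTCA was found in the second Ms4a7 promoter alone, and 6.75% of promoters hold it. None of the 5 held GAGGAAGT (PU.1, 2.44% of promoters), TTGCGNAA (C/EBP, 0.67%) or TTCNNNGAA (the STAT site GAS, 7.02%). The promoters of Ms4a6b and Ms4a6c were alike, with 85.1% of 175 aligned bases identical and 48 bases shared without a break, against 48.5% to 61.9% and at most 9 shared bases in every other pair. A match is a description of letters and shows neither binding nor its absence.

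The libraries held 32308968 to 56904167 counts and detected 12113 to 13209 genes, and all carried 1 batch label. Il9r had 0 reads in all 12 WT libraries and 83 to 562 reads in the 7 libraries labelled Il9r KO, which goes against the label. It also had 61 reads in CD11c+ library 1 labelled Arg1 CKO, 5 reads in each of 2 other Arg1 CKO libraries and 0 in the rest. Directions below are those between libraries as labelled. Arg1 averaged lower in the tumor libraries labelled Arg1 CKO, with 483 to 567 CPM in CKO and 1096 to 2912 CPM in WT CD11c+ libraries, and 1711 to 2790 CPM in CKO and 3620 to 6229 CPM in WT CD11c- libraries. CPM scale the counts of a library to a fixed total of 1000000, here with TMM, a method that corrects for libraries of unlike composition. The 15 markers of IM, such as C1qa and Csf1r, were measured and summed to 32348 to 48357 CPM in CD11c+ and 27145 to 37347 CPM in CD11c- WT libraries. CD11c+ library 3 labelled Il9r KO stood apart, with 16400 CPM for this list and 12200 CPM for 15 markers of alveolar macrophages. Its weight in the results below is given beside them.

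All 5 genes were well read in every library, from 927 reads of Ms4a4c in the naive Arg1 CKO library to 59258 reads of Ms4a6d in a CD11c- library labelled Il9r KO. Together they made up 886 to 3589 CPM (mean 2224 ± 715, SD, n = 10) in CD11c+ IM (1744 to 3589 CPM without CD11c+ library 3 labelled Il9r KO), 2876 to 4356 CPM (3819 ± 417, n = 11) in CD11c- IM and 618 to 1060 CPM (817 ± 200, n = 4) in naive total macrophages. Per kilobase of the main transcript, Ms4a6d had the highest level of the 5 in each population. In CD11c+ WT libraries Ms4a6d stood at 534 ± 101 CPM per kilobase and Ms4a7 at 480 ± 139 (SD, n = 5), and these levels did not differ beyond their spread. Ms4a6c followed with 264 ± 50.3, Ms4a6b with 176 ± 65.8 and Ms4a4c with 149 ± 92.4 CPM per kilobase, and Ms4a6b and Ms4a4c again overlapped. The order was another one in CD11c- WT libraries. There Ms4a6d stood at 874 ± 69.2 CPM per kilobase, and Ms4a4c with 424 ± 95.8, Ms4a6c with 406 ± 75.0, Ms4a7 with 375 ± 110 and Ms4a6b with 350 ± 34.5 lay within one another's spread.

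**Figure D1:**
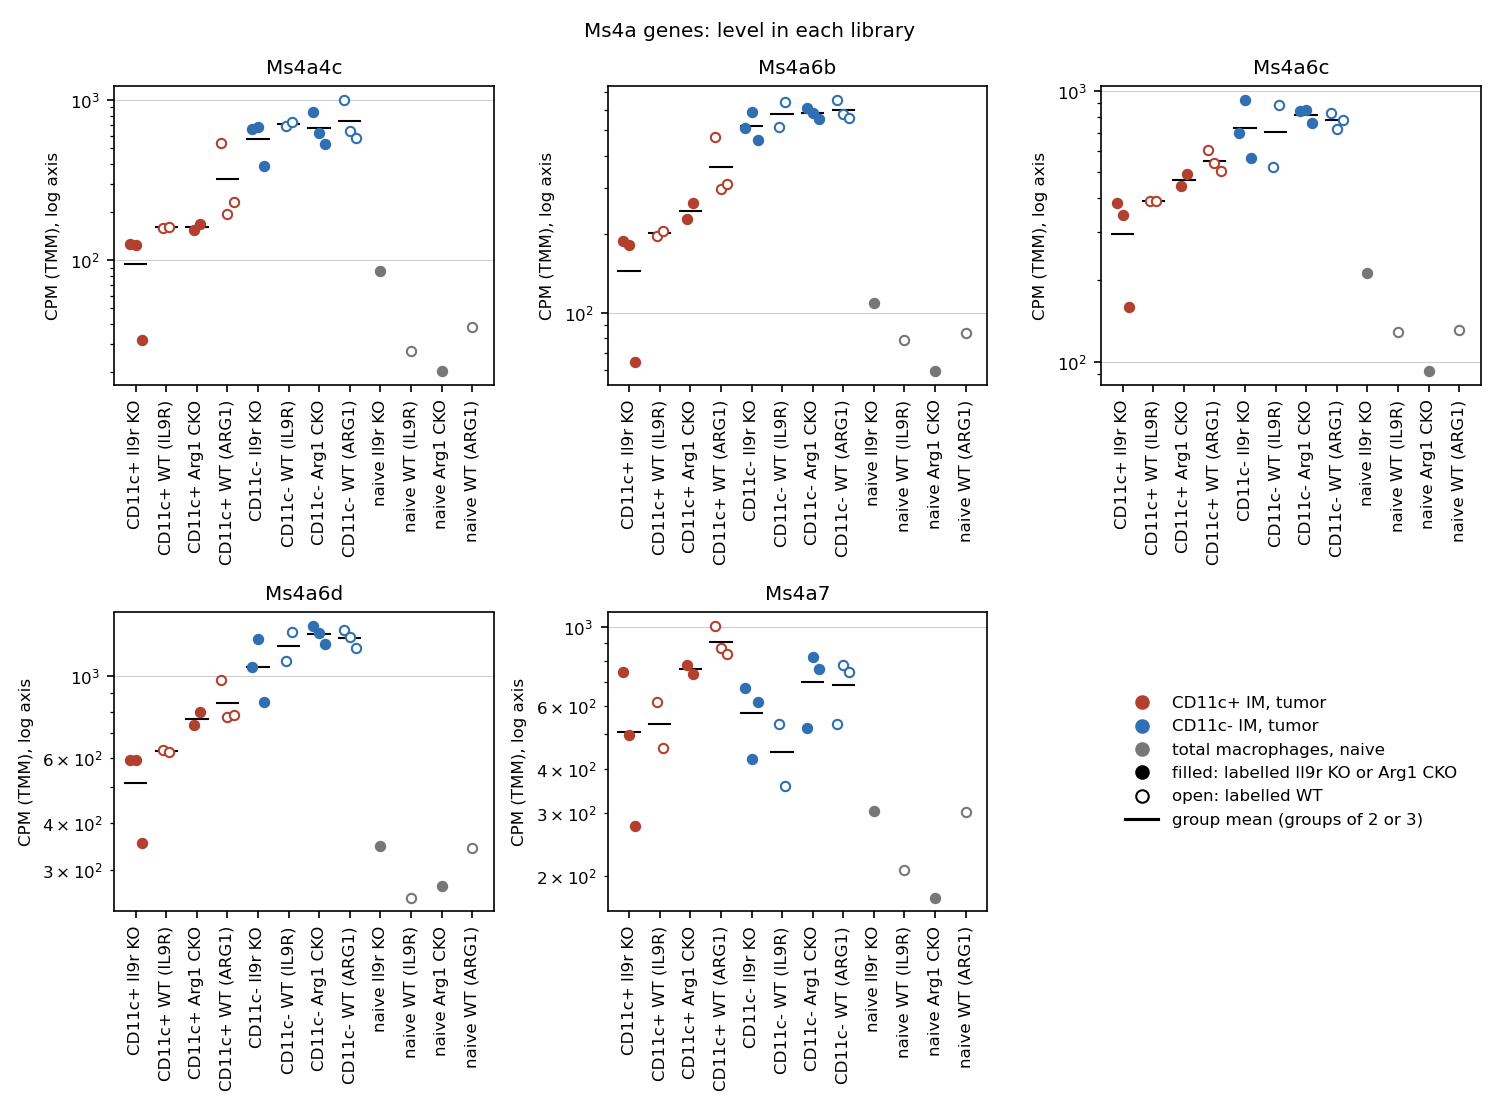
Level of each Ms4a gene (CPM with TMM scaling, log axis) in each of the 25 libraries by group, with points for libraries (filled, labelled Il9r KO or Arg1 CKO; open, labelled WT) and lines for the means of groups of 2 or 3. Naive libraries reach at most 347 CPM for Ms4a6d, below every tumor library. CD11c+ library 3 labelled Il9r KO lies among the naive libraries for Ms4a4c (31.8 CPM), Ms4a6b (64.7 CPM), Ms4a6c (159 CPM) and Ms4a7 (277 CPM). For Ms4a7 the CD11c+ and CD11c- libraries overlap.

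CD11c+ IM had less RNA of Ms4a4c, Ms4a6b, Ms4a6c and Ms4a6d than CD11c- IM, and Ms4a7 did not follow them. CD11c, the integrin chain Itgax, was the sorting marker, and the comparison asks how its 2 subsets differ. Among WT libraries 4 of the 5 genes were lower in CD11c+ IM, where 6.10% of 13434 genes were called lower and 5.44% higher (edgeR adjusted p under 0.05). Their median log2 fold change was -0.77, against 0.00 over all genes tested. In bulk samples, fewer cells that make a transcript and less of it per cell cannot be told apart. Where groups are said here or below not to overlap, the share of all genes without overlap was not counted.

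Ms4a4c, the gene of inflammatory monocytes, differed most. In CD11c+ WT libraries it stood at 159 and 162 CPM in the IL9R chimeras and at 536, 195 and 230 CPM in the ARG1 chimeras, against 689 and 727 CPM and 1008, 644 and 579 CPM in the CD11c- WT libraries. No CD11c+ library reached a CD11c- library, although the highest, ARG1 chimera library 1, came close. The log2 fold change was -1.69 (SE 0.33, edgeR adjusted p = 0.00228), or 3.22-fold lower.

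Ms4a6b was at 197, 206, 472, 299 and 310 CPM in CD11c+ and at 515, 640, 656, 578 and 560 CPM in CD11c- WT libraries, again without overlap. Its mean was 297 ± 111 CPM in CD11c+ and 590 ± 58.3 CPM in CD11c- IM (SD, n = 5 each; log2 fold change -1.13, SE 0.22, edgeR adjusted p = 0.00178). Ms4a6d was at 631, 622, 975, 776 and 784 CPM in CD11c+ and at 1093, 1314, 1329, 1270 and 1190 CPM in CD11c- libraries. These groups did not overlap either, and the log2 fold change was -0.77 (SE 0.15, edgeR adjusted p = 0.00187). Per kilobase Ms4a6d was the most abundant of the 4 genes.

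Ms4a6c was the weakest call. It was at 392, 393, 603, 539 and 507 CPM in CD11c+ and at 524, 882, 828, 724 and 781 CPM in CD11c- WT libraries, and the CD11c- library with 524 CPM lay among the CD11c+ libraries. The log2 fold change was -0.68 (SE 0.20, edgeR adjusted p = 0.032). Leaving out any of 7 of the 10 libraries ended the call: IL9R chimera CD11c+ libraries 1 and 2 and CD11c- library 2, and ARG1 chimera CD11c+ libraries 2 and 3 and CD11c- libraries 1 and 3, with adjusted p of 0.0503 to 0.159 and a log2 fold change of -0.47 without the second IL9R CD11c- library.

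Ms4a7 was at 613, 456, 1003, 869 and 840 CPM in CD11c+ and at 534, 357, 535, 779 and 747 CPM in CD11c- WT libraries. The groups overlapped widely. Its means were 756 ± 219 CPM in CD11c+ and 590 ± 174 CPM in CD11c- IM (SD, n = 5 each), with a log2 fold change of 0.32 (SE 0.22) that did not pass the test (edgeR adjusted p = 0.389).

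The libraries labelled knockout gave the same picture, and they are other libraries than the WT ones. There too 4 of 5 genes were lower in CD11c+ IM, where 6.36% of all genes were called lower and 5.91% higher. Ms4a4c was at 126, 125 and 31.8 CPM (labelled Il9r KO) and at 155 and 168 CPM (Arg1 CKO) in CD11c+ libraries, against 387 to 848 CPM with a median of 642 CPM in the 6 CD11c- libraries. The log2 fold change was -2.33 (SE 0.33, edgeR adjusted p = 9.53e-05), 5.03-fold lower. Ms4a6b had a log2 fold change of -1.55 (SE 0.21, edgeR adjusted p = 6.32e-05), with 64.7 to 263 CPM in CD11c+ and 459 to 611 CPM in CD11c- libraries. Ms4a6c, at 159 to 494 CPM in CD11c+ and 565 to 927 CPM in CD11c- libraries, did not overlap here (-1.05, SE 0.19, edgeR adjusted p = 0.00107), and Ms4a6d had a log2 fold change of -0.90 (SE 0.14, edgeR adjusted p = 0.000265). Ms4a7 was at 277 to 780 CPM in CD11c+ and 426 to 823 CPM in CD11c- libraries (-0.03, SE 0.21, edgeR adjusted p = 0.971). Without both libraries numbered 3 that are labelled Il9r KO, the 4 lower genes had log2 fold changes of -2.24, -1.41, -0.97 and -0.86 and remained called, and Ms4a7 had 0.14 (adjusted p = 0.736).

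**Figure D2:**
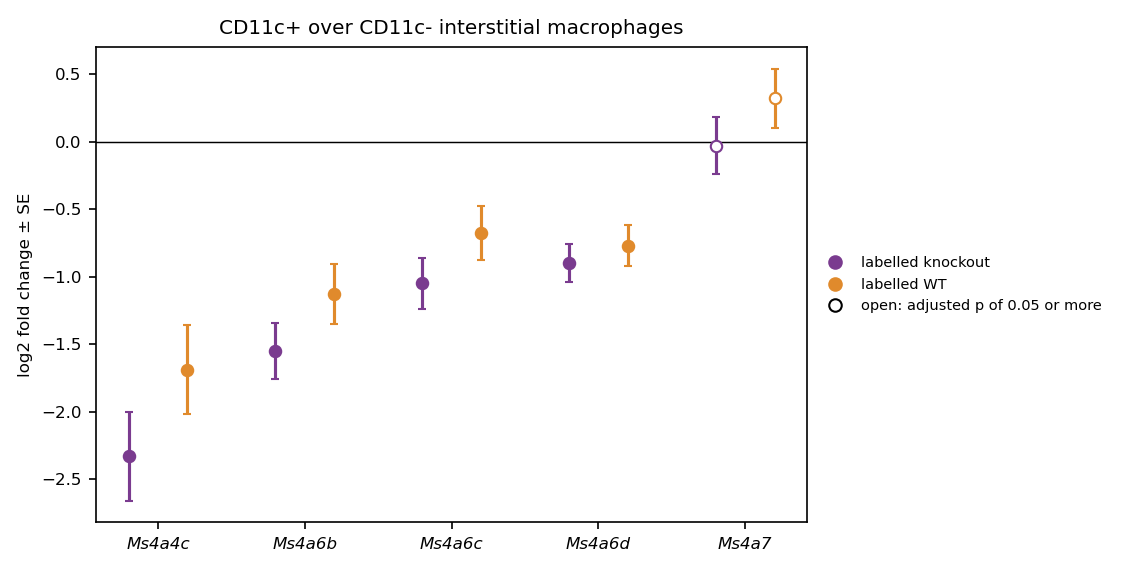
Log2 fold change of each Ms4a gene in CD11c+ over CD11c- interstitial macrophages of tumor lungs, with its standard error, in libraries labelled knockout (5 against 6) and WT (5 against 5). Filled points have an edgeR adjusted p under 0.05. Ms4a4c, Ms4a6b, Ms4a6c and Ms4a6d lie below 0 in both, from -2.33 to -0.68, and Ms4a7 lies at -0.03 and 0.32.

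Markers of IM and of other cells moved with this comparison. In WT libraries 4 of the 15 IM markers (Folr2, Lyve1, Cd163 and Pf4) were called lower in CD11c+ IM and 0 higher. Beside Itgax, the sorting marker, 7 of the other 14 alveolar macrophage markers were called higher in CD11c+ WT IM and 0 lower. These 14 summed to 621 to 7208 CPM in CD11c+ and 361 to 581 CPM in CD11c- WT libraries, where Krt79 was at 0. Of 11 dendritic cell markers, 4 were called higher, with 223 to 482 CPM in CD11c+ and 13.5 to 56.6 CPM in CD11c- libraries. Of 12 monocyte markers besides Ms4a4c, 2 were called higher and 5 lower, with 2386 to 8920 CPM in CD11c+ and 4043 to 7363 CPM in CD11c- libraries. The part of these cells in the Ms4a differences was not tested.

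A ratio within a library does not depend on its scaling, and it set the subsets apart in every library. CD11c+ libraries held 1.87 to 8.69 reads of Ms4a7 for each read of Ms4a4c (median 4.19, n = 10), and CD11c- libraries held 0.491 to 1.58 (median 1.02, n = 11). Without CD11c+ library 3 labelled Il9r KO the CD11c+ range was 1.87 to 5.92. Naive libraries, with 3.58, 7.67, 8.62 and 7.85 reads, lay above every CD11c- library. Ms4a7 made up 24.8% to 36.7% of the reads of the 5 genes in CD11c+, 9.12% to 21.3% in CD11c- and 28.1% to 33.6% in naive libraries. By contrast Ms4a6d took a like share in both tumor subsets, 27.2% to 40.0% in CD11c+ (at most 34.0% without library 3 labelled Il9r KO) and 29.4% to 33.5% in CD11c- libraries. The ratios restate the unequal differences above and are given without a test.

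**Figure D3:**
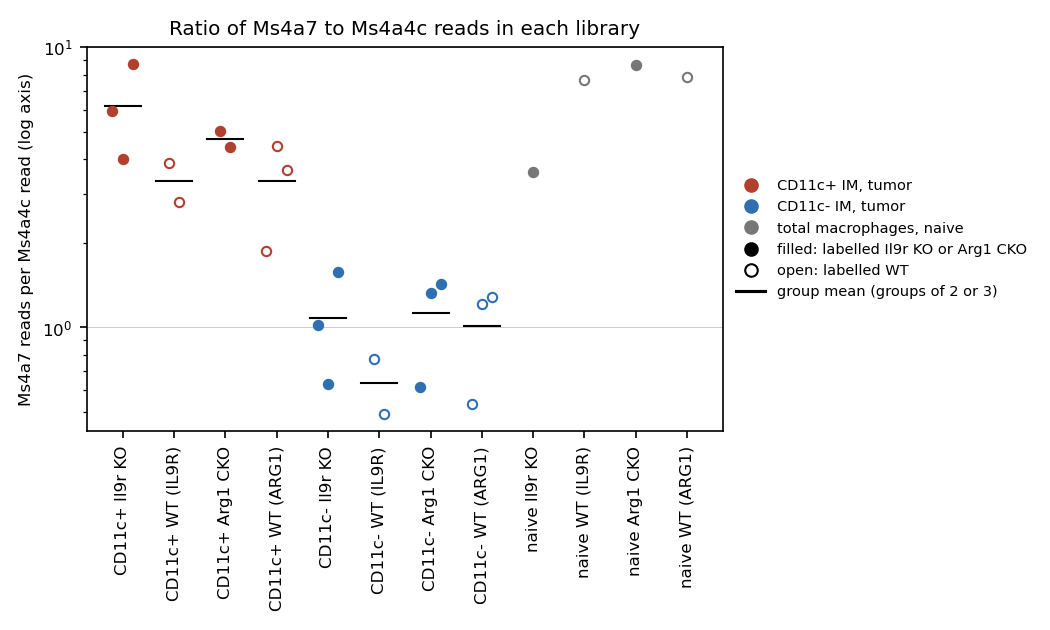
Reads of Ms4a7 per read of Ms4a4c (log axis) in each library by group, with points for libraries (filled, labelled Il9r KO or Arg1 CKO; open, labelled WT) and lines for group means. All CD11c- libraries lie at or below 1.58, and all CD11c+ and naive libraries at or above 1.87.

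Within each subset the genes also varied together from library to library. Over the 10 CD11c+ libraries and the 11 CD11c- libraries the points share depth and scaling, and the values are descriptions. In CD11c+ IM, Pearson's r of log2 CPM was 0.94 to 0.99 among Ms4a4c, Ms4a6b, Ms4a6c and Ms4a6d (Spearman's rho 0.90 to 0.99), and 0.83 to 0.97 without library 3 labelled Il9r KO. Ms4a7 was correlated with the 4 genes there as well, at 0.86 to 0.93 (0.64 to 0.84 without that library). In CD11c- IM the 4 genes had an r of 0.48 to 0.93 (rho 0.36 to 0.94), lowest between Ms4a4c and Ms4a6c. Ms4a7 had negative values with all 4 in CD11c- IM, from -0.40 to -0.17 (rho -0.65 to -0.23).

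The question the study names sets cells labelled Il9r KO against the WT cells that share their chimeras. None of the 5 genes was called over both subsets (edgeR; 7 of 13434 genes, 0.0521%, were called in either direction and 562 had an unadjusted p under 0.05), and none was called with DESeq2 or limma voom. Ms4a4c was at 126, 125 and 31.8 CPM in KO and 159 and 162 CPM in WT CD11c+ libraries, and at 664, 676 and 387 CPM in KO and 689 and 727 CPM in WT CD11c- libraries. Every KO library thus lay below both WT libraries of its subset, an order that groups this small can also show by chance. The log2 fold change of Ms4a4c over both subsets was -0.53 (SE 0.32), and those of Ms4a6b, Ms4a6c, Ms4a6d and Ms4a7 were -0.32 (SE 0.21), -0.17 (SE 0.20), -0.24 (SE 0.15) and 0.14 (SE 0.22), each with an adjusted p of 1. Ms4a7, the one with a positive sign, was at 747, 497 and 277 CPM in KO and 613 and 456 CPM in WT CD11c+ libraries, and at 675, 426 and 613 CPM in KO and 534 and 357 CPM in WT CD11c- libraries.

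The numbers of these libraries were taken to pair knockout with WT, which is an assumption. Deviations from group means correlated at 0.25 to 0.46 between same-numbered libraries. With 2 WT libraries in a group, their deviations mirror each other, so these correlations are not independent. No correlation between libraries of unlike number is given here. In all 4 such pairs Ms4a4c, Ms4a6b and Ms4a6d were lower in the library labelled Il9r KO, as were 8.85% of 9141 genes, and Ms4a7 was higher in all 4, as were 6.82% of genes. The mean log2 differences within pairs were small, -0.22 for Ms4a4c (range -0.38 to -0.05), -0.10 for Ms4a6b, -0.07 for Ms4a6d and 0.25 for Ms4a7 (0.13 to 0.34), and 0.07 for Ms4a6c with 2 pairs either way. With the pairs as a block, Ms4a4c had a log2 fold change of -0.22 (SE 0.18, edgeR adjusted p = 0.994) and Ms4a7 one of 0.25 (SE 0.09, edgeR adjusted p = 0.994), and Ms4a6c turned to 0.07 (SE 0.11). The pairs hold numbers 1 and 2 alone. Without both libraries numbered 3 and with no pairs, the log2 fold change of Ms4a4c was likewise -0.22 (SE 0.25, edgeR adjusted p = 1), and those of Ms4a6b, Ms4a6c, Ms4a6d and Ms4a7 were -0.10, 0.06, -0.07 and 0.27.

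Arg1 CKO cells gave a like result for Ms4a4c. No member was called (edgeR; 5 of 13434 genes, 0.0372%, were called, and 519 had an unadjusted p under 0.05), nor was any with DESeq2 or limma voom. Ms4a4c was at 155 and 168 CPM in CKO and at 536, 195 and 230 CPM in WT CD11c+ libraries, and at 848, 620 and 534 CPM in CKO and at 1008, 644 and 579 CPM in WT CD11c- libraries. The CD11c+ groups did not overlap and the CD11c- groups did, and groups this small can also separate by chance. Its log2 fold change was -0.58 (SE 0.31), and it was -0.27 without ARG1 chimera CD11c+ WT library 1, the one with 536 CPM. Those of Ms4a6b, Ms4a6c, Ms4a6d and Ms4a7 were -0.30 (SE 0.20), -0.09 (SE 0.19), -0.06 (SE 0.14) and -0.12 (SE 0.21), each with an adjusted p of 1. Without CD11c+ library 1 labelled Arg1 CKO, the one with reads of Il9r, the log2 fold changes of the 5 genes were -0.55, -0.25, -0.05, -0.03 and -0.14, with Ms4a4c first and Ms4a7 last.

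The label numbers were not taken to pair libraries of the ARG1 chimeras, and same-numbered libraries are set side by side here as a description. Ms4a4c was lower in the labelled knockout library of all 9 pairs of one number over both chimera kinds, by 0.05 to 1.79 on the log2 scale, as were 46 of 9141 genes (0.503%). In the 5 Arg1 pairs alone, 2.73% of genes were lower throughout. Ms4a6b was lower in 8 of the 9 pairs, Ms4a6c and Ms4a6d in 5, and Ms4a7 in 3. This pattern was noticed in these data, and libraries of both subsets may come from the same animals, so it carries no p-value.

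**Figure D4:**
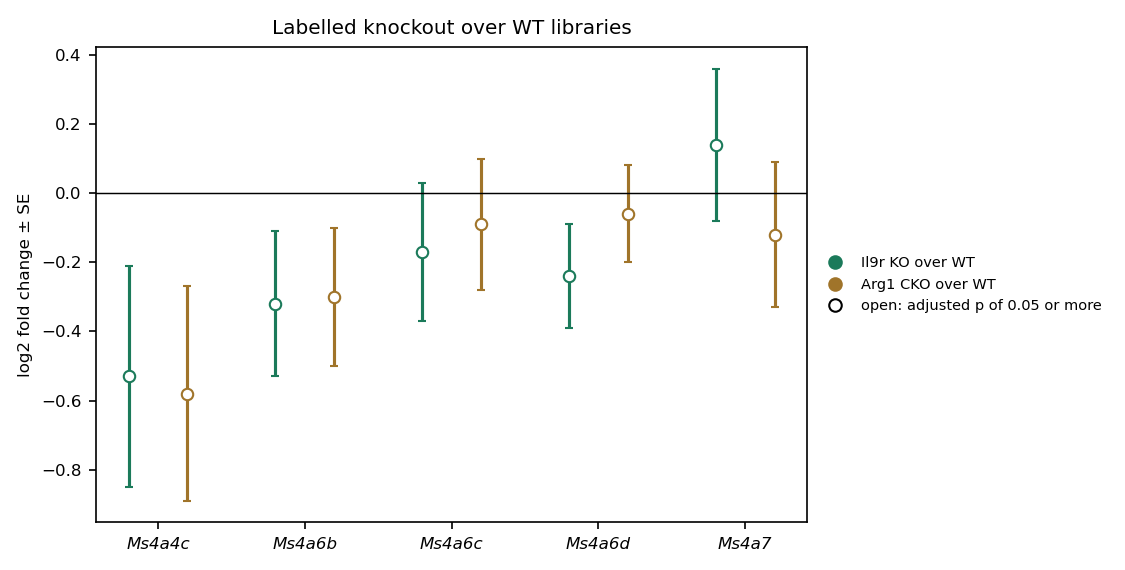
Log2 fold change of each Ms4a gene over both subsets with its standard error, for libraries labelled Il9r KO over WT (6 against 4) and Arg1 CKO over WT (5 against 6). All points are open, with an edgeR adjusted p of 1. The largest are those of Ms4a4c, at -0.53 and -0.58.

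Whether the genotype differences varied between the subsets was tested as an interaction. No gene was called for either chimera kind with edgeR (0% of 13434 genes), with 740 genes for Il9r and 519 for Arg1 at an unadjusted p under 0.05. DESeq2 called 7 and 18 genes, and no member. For Il9r the differences (CD11c+ minus CD11c-) were -0.46 (SE 0.65) for Ms4a4c, -0.31 (SE 0.43) for Ms4a6b, -0.45 (SE 0.40) for Ms4a6c, -0.09 (SE 0.29) for Ms4a6d and -0.42 (SE 0.44) for Ms4a7. Without both libraries numbered 3 that are labelled Il9r KO they were -0.27, -0.05, -0.30, -0.02 and -0.08 in the same order of genes, and that of Ms4a4c was -0.05 without CD11c+ library 3 alone. For Arg1 they were -0.82 (SE 0.62), -0.51 (SE 0.41), -0.28 (SE 0.38), -0.17 (SE 0.28) and -0.28 (SE 0.42) in that order. Without ARG1 chimera CD11c+ WT library 1 those of Ms4a4c and Ms4a6b were -0.24 and -0.27. With standard errors of this size, differences of the order of those between the genotypes themselves were not detectable.

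WT IM of tumor lungs had far more RNA of all 5 genes than WT macrophages of naive lungs. The naive libraries held total macrophages and the tumor libraries sorted IM, so tumor and sort cannot be told apart, and both tumor subsets were set against the same 2 naive WT libraries. In WT libraries all 5 genes were higher in CD11c+ IM, where 13.7% of 13170 genes were called higher and 9.54% lower. All 5 were higher in CD11c- IM too, where 13.0% of genes were called higher and 10.2% lower. The median log2 fold change of the 5 was 1.82 in CD11c+ and 2.53 in CD11c- IM, against -0.02 and -0.03 over all genes. With library totals in place of TMM the median of all genes moved by -0.27 in CD11c+ and -0.24 in CD11c- IM. The genes called in CD11c+ IM were then 1139 higher with 2098 lower (1798 with 1257 under TMM), and those in CD11c- IM 1140 higher with 1986 lower (1713 with 1344 under TMM). All 5 Ms4a genes were called higher with either scaling.

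Ms4a4c again had the widest range. In WT libraries it was at 159 to 536 CPM with a median of 195 CPM in CD11c+ IM and at 579 to 1008 CPM with a median of 689 CPM in CD11c- IM, against 27.1 and 38.4 CPM in naive macrophages. No tumor WT library came near the naive ones. The log2 fold change over naive was 2.91 in CD11c+ IM (SE 0.42, edgeR adjusted p = 0.000448), or 7.5-fold, and 4.49 in CD11c- IM (SE 0.46, edgeR adjusted p = 1.22e-05), or 22.5-fold.

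The 3 Ms4a6 genes came next, with naive values of 78.2 and 83.8 CPM for Ms4a6b, 129 and 131 CPM for Ms4a6c and 252 and 343 CPM for Ms4a6d. All tumor WT libraries lay above these, by the per-library values given above. Ms4a6b had a log2 fold change of 1.82 (SE 0.26) in CD11c+ and 2.86 (SE 0.28) in CD11c- IM. Ms4a6c had 1.89 (SE 0.23) and 2.53 (SE 0.24), and Ms4a6d had 1.35 (SE 0.19) and 2.08 (SE 0.20) in the same order of subsets. The edgeR adjusted p of these genes was at most 0.000456.

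Ms4a7 was at 208 and 302 CPM in naive WT libraries, below all tumor WT libraries, of which the lowest had 357 CPM. Its log2 fold change was 1.51 in CD11c+ IM (SE 0.22, edgeR adjusted p = 0.000479) and 1.16 in CD11c- IM (SE 0.22, edgeR adjusted p = 0.00134). Ms4a7 was the one gene of the 5 with a larger value in CD11c+ than in CD11c- IM, and that difference between the subsets is the one that did not pass the test above. All 5 calls in both subsets held when any WT library was left out.

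The libraries labelled knockout gave the same signs, and their 2 naive libraries differed from each other. Ms4a4c was at 85.4 CPM in the naive library labelled Il9r KO and at 20.2 CPM in the naive Arg1 CKO library, and Ms4a6c was at 213 and 92.0 CPM in the same order. In CD11c- IM all 5 genes were called higher, where 11.3% of 13356 genes were called higher and 11.7% lower. Their log2 fold changes over naive were 3.51, 2.66, 2.31, 1.89 and 1.36 for Ms4a4c, Ms4a6b, Ms4a6c, Ms4a6d and Ms4a7, with adjusted p of 0.000332 to 0.0173 (edgeR). Without the naive Arg1 CKO library 2 of the 5 calls were left, and Ms4a4c (2.67, adjusted p = 0.059), Ms4a6c (1.71, adjusted p = 0.0548) and Ms4a7 (0.88, adjusted p = 0.322) were not called. With library totals 1087 genes were called higher and 2263 lower (1513 and 1564 with TMM), and in CD11c+ IM 244 higher and 640 lower (403 and 360 with TMM).

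In CD11c+ IM labelled knockout, Ms4a6d alone was called higher, where 3.02% of genes were called higher and 2.70% lower. Its log2 fold change was 0.97 (SE 0.24, edgeR adjusted p = 0.0364), with 355 to 796 CPM in CD11c+ and 347 and 272 CPM in naive libraries. Ms4a4c had 1.16 (SE 0.60, adjusted p = 0.269), Ms4a6b 1.09 (SE 0.39, adjusted p = 0.107), Ms4a6c 1.23 (SE 0.39, adjusted p = 0.0756) and Ms4a7 1.31 (SE 0.37, adjusted p = 0.0532). The number of genes called rested on single libraries, being 4 of 5 without CD11c+ library 3 labelled Il9r KO and 5 of 5 without the naive library labelled Il9r KO. It was 0 without the naive Arg1 CKO library, either CD11c+ Arg1 CKO library, CD11c+ library 1 or 2 labelled Il9r KO, CD11c- library 1 labelled Il9r KO, or CD11c- Arg1 CKO library 2 or 3.

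**Figure D5:**
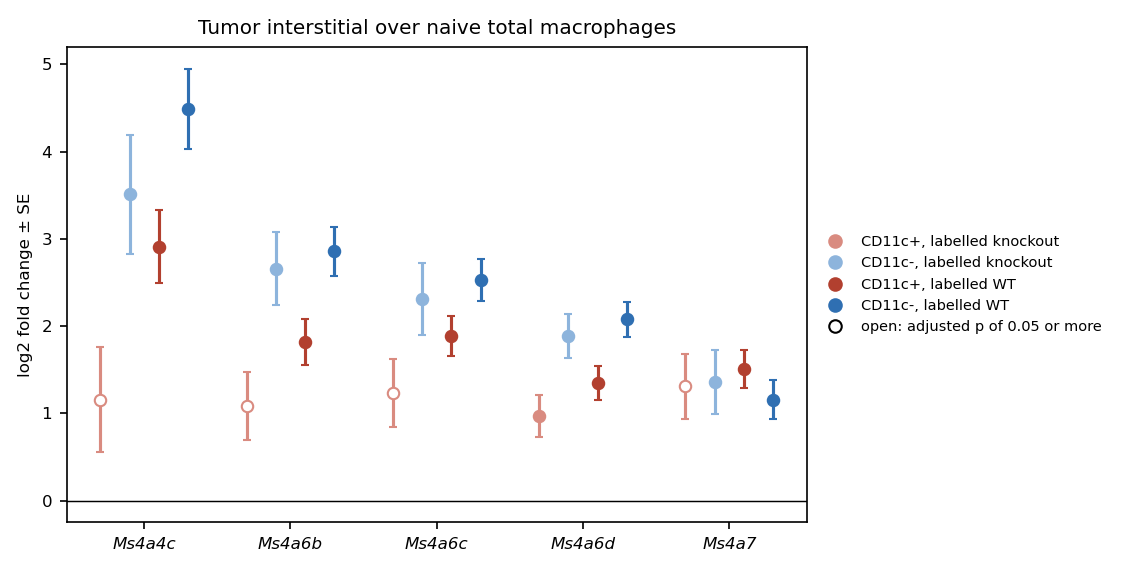
Log2 fold change of each Ms4a gene in tumor interstitial macrophages over naive total macrophages, with its standard error, for the CD11c+ and CD11c- subsets in libraries labelled knockout and WT. Filled points have an edgeR adjusted p under 0.05. All values lie above 0, from 0.97 for Ms4a6d in CD11c+ libraries labelled knockout to 4.49 for Ms4a4c in CD11c- WT libraries.

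Other cell types differed here as well. Without Itgax, 14 alveolar macrophage markers were tested. In CD11c+ WT IM 1 of them was called higher than in naive macrophages and 0 lower, with sums of 621 to 7208 CPM in CD11c+ WT and 495 to 5569 CPM in the 4 naive libraries. In CD11c- WT IM 1 was called higher and 7 lower, with 361 to 581 CPM in CD11c- WT libraries. Of 11 dendritic cell markers 1 was called lower in CD11c+ WT IM and 7 in CD11c- WT IM, with 223 to 482 CPM in CD11c+ WT, 13.5 to 56.6 CPM in CD11c- WT and 167 to 541 CPM in naive libraries. Of 10 B16 melanoma markers 8 were called higher in CD11c+ and 7 in CD11c- WT IM. Most of that list's reads were Gpnmb, also a macrophage gene, and the other 9 markers summed to 67.4 to 113 CPM in CD11c+ WT, 106 to 176 CPM in CD11c- WT and 21.4 to 48.5 CPM in naive libraries, where Sox10 and Slc45a2 were at 0. The part of these cells in the Ms4a differences was not tested.

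Across all 25 libraries, the genes whose log2 CPM followed each Ms4a gene most closely were looked up among 9141 genes that averaged 5 CPM or more. The points share libraries and scaling and fall into the 3 populations. For Ms4a4c they were Rtp4 (r = 0.994), Pydc4 (0.991) and Irf7 (0.991), and for Ms4a6b Rtp4 (0.99), Pydc4 (0.985) and Fcgr1 (0.983). Irf7, a transcription factor of the interferon response, averaged 494.5 ± 425 CPM in CD11c+ WT (SD, n = 5), 1246 ± 305 CPM in CD11c- WT (n = 5) and 101 ± 56.5 CPM in naive libraries (n = 4). Without ARG1 chimera CD11c+ WT library 1, which had 1254 CPM, the CD11c+ WT mean was 305 ± 20.1 CPM. For Ms4a6c they were Sdc4 (0.982), Ninj1 (0.976) and Dynlt1a (0.974), and for Ms4a6d Lgals9 (0.987), Fcgr1 (0.98) and Ctsl (0.978). For Ms4a7 they were Erp29 (0.941), Ccnd1 (0.94) and Wbp5 (0.94). With Ms4a4c, Ms4a6b had an r of 0.989, Ms4a6d 0.976, Ms4a6c 0.964 and Ms4a7 0.653. Without CD11c+ library 3 labelled Il9r KO the last of these was 0.615.

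The other measured genes of the family or of like build were Ms4a1, Ms4a4b, Ms4a8a, Tmem176a and Tmem176b. Ms4a4b, known from T cells in mice, was lower in CD11c+ IM by a log2 fold change of -1.25 in WT (SE 0.32, edgeR adjusted p = 0.0134; 6.01 ± 2.04 CPM in CD11c+ and 13.7 ± 1.69 CPM in CD11c- IM, SD, n = 5 each) and of -1.12 in libraries labelled knockout (SE 0.30, edgeR adjusted p = 0.0182). The WT call was lost without IL9R chimera CD11c+ library 2 (adjusted p = 0.0855). Markers of T and NK cells summed to 15.0 to 32.6 CPM in CD11c+ and 2.46 to 6.24 CPM in CD11c- WT libraries, with Cd3e, Ncr1 and Nkg7 at 0 in CD11c+ WT IM. Of the 9 measured, Cd4 alone was called higher in CD11c+ WT IM and 0 lower. Over naive macrophages Ms4a4b was higher by 1.47 in CD11c+ WT IM (SE 0.37, edgeR adjusted p = 0.0104), a call lost without either naive library, and by 2.67 in CD11c- WT IM (SE 0.40, edgeR adjusted p = 0.000245). Ms4a4b shares 7.73% of the 50-base words of Ms4a4c, which has a far higher level.

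Ms4a8a was at 26.2, 80.1, 69.5, 28.6 and 36.6 CPM in CD11c+ and at 58.6, 139, 113, 74.5 and 89.9 CPM in CD11c- WT libraries, with the 2 libraries of the IL9R chimeras first. The groups overlapped, and the log2 fold change of -0.98 (SE 0.37) did not pass the test (edgeR adjusted p = 0.096). It was called with DESeq2 (adjusted p = 0.0445) and, at -1.49, without IL9R chimera CD11c+ library 2 (edgeR adjusted p = 0.0406). Over naive macrophages it was higher by 1.45 in CD11c+ WT IM (SE 0.48, edgeR adjusted p = 0.0398; adjusted p up to 0.361 without single libraries) and by 2.44 in CD11c- WT IM (SE 0.51, edgeR adjusted p = 0.003; adjusted p = 0.0689 without the IL9R chimera naive library). Tmem176a and Tmem176b, a neighbouring pair of genes on chromosome 6 that resemble CD20, went the other way. They were lower in CD11c- WT IM than in naive macrophages, by -1.58 (SE 0.24, edgeR adjusted p = 0.000321) and -1.51 (SE 0.24, edgeR adjusted p = 0.000471). Between CD11c+ and CD11c- WT IM they had log2 fold changes of 0.90 and 0.77, did not overlap, and did not pass the test (edgeR adjusted p = 0.096 and 0.131). With the WT libraries of the subsets alone in the fit both were called higher in CD11c+ IM (edgeR adjusted p = 0.0108 and 0.0287).

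Ms4a1, the gene of CD20, was near the limit of reading. It had 0 reads in 4 of the CD11c+ WT libraries and 3 reads in the other, and 20 to 31 reads in the CD11c- WT libraries (edgeR adjusted p = 0.00421; adjusted p = 0.0501 with the WT libraries alone). CD11c+ libraries labelled Il9r KO had 86, 13 and 562 reads of Ms4a1, the most in library 3, and the difference from WT over both subsets did not pass the test (edgeR adjusted p = 0.156).

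A list of 8 genes was chosen by hand, as possible partners of MS4A proteins or as markers of macrophages. It held Clec7a, Trem2, Tyrobp, Syk, Card9, Fcer1g, Cd300lf and Csf1r. Of these, 2 were called higher in CD11c+ than in CD11c- WT IM and 0 lower, where 5.44% of genes were called higher and 6.10% lower. Clec7a, the receptor Dectin-1, averaged 916 ± 344 CPM in CD11c+ and 359 ± 193 CPM in CD11c- IM (SD, n = 5 each; log2 fold change 1.34, SE 0.29, edgeR adjusted p = 0.00546), and its groups overlapped. Trem2, a lipid-sensing receptor, averaged 608 ± 141 CPM in CD11c+ and 331 ± 65.4 CPM in CD11c- IM (log2 fold change 0.88, SE 0.19, edgeR adjusted p = 0.00459), with no overlap. Both had signs opposite to those of Ms4a4c and the Ms4a6 genes. Over naive macrophages 2 of the 8 were called higher and 1 lower in CD11c+ WT IM, and 2 higher and 3 lower in CD11c- WT IM. The matching shares over everything tested, higher first, were 13.7% with 9.54% for CD11c+ and 13.0% with 10.2% for CD11c- WT IM. Whether the list of 8 exceeds these shares was not tested, and the values below describe single genes. Fcer1g, the signaling chain of Fc receptors, was higher by 1.55 in CD11c+ (SE 0.24, edgeR adjusted p = 0.000647) and by 1.51 in CD11c- WT IM (SE 0.24, edgeR adjusted p = 0.000425). Tyrobp, the adaptor DAP12 that carries the signal of Trem2, was higher by 1.15 in CD11c+ (SE 0.25, edgeR adjusted p = 0.00418) and by 0.75 in CD11c- WT IM (SE 0.24, edgeR adjusted p = 0.0361). The CD11c- call of Tyrobp was lost with library totals (adjusted p = 0.0716) and without any of 4 libraries, namely the IL9R chimera naive library (0.413), IL9R CD11c- library 2 (0.0798) and ARG1 CD11c- libraries 1 and 3 (0.0646 and 0.0544). Clec7a was lower in CD11c- WT IM by -1.78 (SE 0.33, edgeR adjusted p = 0.00133; adjusted p = 0.111 without the ARG1 chimera naive library).

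Syk, the kinase that acts downstream of Dectin-1 and of Fc receptor chains, was lower than in naive macrophages, with log2 fold changes of -0.60 in CD11c+ (SE 0.17, edgeR adjusted p = 0.0211) and -0.63 in CD11c- WT IM (SE 0.17, edgeR adjusted p = 0.0161). It averaged 190 ± 17.6 CPM in CD11c+ WT (SD, n = 5), 188 ± 35.1 CPM in CD11c- WT (n = 5) and 305 ± 82.2 CPM in naive WT libraries (n = 2). Card9, an adaptor further down the same path, was lower in CD11c- WT IM (log2 fold change -1.04, SE 0.30, edgeR adjusted p = 0.0207). Without the IL9R chimera naive library the calls of Tyrobp, Syk and Card9 were lost, with adjusted p of 0.108 for Tyrobp and 0.263 for Syk in CD11c+ and 0.244 for Syk and 0.338 for Card9 in CD11c- IM. The call of Syk in CD11c+ IM was also lost without the ARG1 chimera naive library (adjusted p = 0.0545) and without IL9R chimera CD11c+ library 2 (adjusted p = 0.0517). Trem2 did not pass the test against naive macrophages in either subset.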

How the data were processed

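RNA of sorted lung macrophages was sequenced as polyA RNA with SMART-seq v4 and Nextera XT libraries, per the labels. The authors deposited 1 table of raw counts per gene and library. The submitters' processing notes name STAR 2.7.10a, the build mm10, featureCounts (Subread 2.0.3) and FastQC 0.11.5. Annotation, strand setting and treatment of reads with several matches are not given in the sources used here. Genes were matched by symbol. Of 12395 rows whose identifier has a symbol in GENCODE vM21, 262 carry the same symbol in the deposited table. By symbol the sorting marker Itgax was at 194 to 441 CPM in CD11c+ and 11.4 to 33.4 CPM in CD11c- WT libraries, and by identifier at 429 to 664 and 492 to 645 CPM, so the identifiers were not used.

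Counts were tested with edgeR 4.0.16 (quasi-likelihood, TMM, filterByExpr, R 4.3.3) on all genes, and p-values were adjusted over all of them by Benjamini-Hochberg, with a threshold of 0.05. The 21 tumor libraries shared 1 fit with a term per group. Comparisons with naive macrophages used the 12 WT or the 13 labelled knockout libraries, with terms for population and chimera kind. Log2 CPM used a prior count of 2. The scripts were tested on simulated data.

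The members, gene lists, motifs and tests were chosen with earlier results of these data known. All members and other Ms4a or Tmem176 genes are named, with up to 4 called receptor or adaptor genes and the 3 most similar genes of each member. The number in the labels was taken to pair knockout with WT libraries in the IL9R chimeras, which is an assumption. Deviations from group means there correlated at 0.25 to 0.46 in 4 pairs, which are not independent. Alternatives were RLE scaling, library totals, no filter, DESeq2 1.42.0, limma 3.58.1 (voom), other sets of libraries in the fit, replicate blocks and leaving out single libraries.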

Additional observations from a re-analysis of the deposited data

Results flagged for a closer look

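Values far from the rest of their group were looked for in 20 groups of 4 to 10 libraries, where chance alone marks about 1 group in 20. Ms4a4c had 536 CPM in ARG1 chimera CD11c+ WT library 1, far above the other 4 CD11c+ WT libraries. Ms4a1 had 0.085 CPM, from 3 reads, in the same library and 0 reads in the other 4. Tmem176b had 269 CPM in 1 CD11c+ WT library, far below the other 4.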

How the results depend on the processing

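The calls of Ms4a4c, Ms4a6b and Ms4a6d between the subsets, and of all 5 genes in WT tumor IM against naive macrophages, held in every alternative run. DESeq2 called 53 genes for Il9r KO against WT and 25 for Arg1 CKO against WT, 7 and 18 for the interactions, and 1784 in CD11c+ IM labelled knockout against naive. There 2 members were called with RLE factors, 4 with DESeq2, 3 with limma voom and 5 in the fit of all 25 libraries. With a replicate block by number, 8 genes were called for Il9r (7 by subset and number), 8 for Arg1 (10 by subset and number) and 2 for the Arg1 interaction by subset and number. ARG1 pairs of knockout and WT correlated at -0.07 and -0.17 in CD11c+ and at 0.21 to 0.38 in CD11c- IM. WT pairs of CD11c+ and CD11c- correlated at 0.05 to 0.35. These numbers were not taken as pairs, which is a choice, as the CD11c- values of ARG1 overlap those of the IL9R pairs. With the block Ms4a8a (-1.05, adjusted p = 0.00134), Tmem176a (0.92, 0.0495) and Tmem176b (0.80, 0.0476) were called between WT subsets. The block changed no call of a member, and turned Ms4a6c for Il9r to 0.07 in both forms. Without both libraries numbered 3 labelled Il9r KO, an alternative chosen after seeing the data, Ms4a6c had 0.06 for Il9r and Ms4a7 0.14 between the subsets labelled knockout. Leaving out single libraries gave 805 to 1692 called genes between WT subsets (805 without IL9R CD11c+ WT library 2, 928 without IL9R CD11c- WT library 1) and 3 to 4 members, 976 to 1710 genes between subsets labelled knockout, 3 to 9 for Il9r, 3 to 8 for Arg1, and 0 to 12 and 0 to 1 for the interactions. Against naive it gave 1293 to 3579 genes in CD11c- and 1032 to 3202 in CD11c+ WT IM, and 374 to 3748 (2 to 5 members) in CD11c- and 3 to 2123 (0 to 5 members) in CD11c+ IM labelled knockout. Log2 fold changes ran from -0.23 to 0.12 for Ms4a7 between subsets labelled knockout, -0.34 to 0.04 for Ms4a6c, -0.05 to 0.30 for Ms4a7 (both Il9r), -0.09 to 0.01 for Ms4a6d (Arg1), and -0.55 to 0.04 for Ms4a6b and -0.25 to 0.12 for Ms4a6d in the Il9r interaction. The lone library of an arm is then assumed to vary like other groups. The cause of these changes was not tested.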
